A study of Homo sapiens with 27 samples.

Results

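Annexins are calcium-dependent proteins that bind acidic phospholipids on the inner face of membranes. The 10 human annexin genes ANXA1, ANXA2, ANXA3, ANXA4, ANXA5, ANXA6, ANXA7, ANXA10, ANXA11 and ANXA13 were followed through all of their probes in the platform annotation. They have 17 probes, out of 47291 probes and 20035 genes measured on Illumina bead arrays. A probe was called detected on an array where its detection p-value was under 0.01, and genes with a probe detected on at least 2 of the 27 arrays were tested. By this rule 9 of the 10 annexins, with 13 probes, were tested among 13510 genes.

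The cells were LS174T, a human colorectal carcinoma line with a stabilised beta-catenin. The SNAI1 line carries doxycycline-inducible mSnail1-HA, a tagged mouse Snail1, and the LEF1 line carries inducible mLef1-HA. For the control line the labels name no overexpressed gene beyond the tag Luc, with which the descriptions of its arrays begin. The inducer was used at 0.1 µg/ml and replaced at 48 h. The control line had 9 arrays, with 2 at 0 h and at 6 h and 1 each at 3, 24, 48, 72 and 96 h. The SNAI1 line had 11 arrays, with 2 at 0, 6, 48 and 96 h and 1 at 3, 24 and 72 h. The LEF1 line had 7 arrays, with 2 at 0, 6 and 72 h and 1 at 24 h. One LEF1 line array is titled 6 h but its time field says 0 h, and it is used here as 6 h. Neither the clonality of a line nor the source of its replicates is given, so the p-values measure only the spread between these arrays.

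Background-corrected, normalised log2 intensities are given throughout, on a scale where undetected probes read about 4.3. The form of the detection p-value splits the arrays into 2 sets. Set 1 holds all 11 SNAI1 line arrays and 7 control line arrays, and set 2 holds all 7 LEF1 line arrays and, from the control line, replicate 2 of 0 h and replicate 1 of 6 h. Between 18241 and 19683 probes were detected per array in set 1 and between 14766 and 15918 in set 2. The human SNAI1 probe was detected on none of the 27 arrays (4.18 to 4.67), so the mouse transgene was not followed by it. The 2 human LEF1 probes read 5.85 to 6.68 at 0 h and 9.20 to 11.99 from 24 h on in the SNAI1 line, and 4.61 to 5.19 and 6.01 to 9.97 in the LEF1 line. Whether they read the mouse transgene was not tested. The colon epithelium markers EPCAM, KRT8, KRT18, CDX2 and GPA33 were detected on all 27 arrays. Of 10 markers of other cell types, PECAM1 and DES were detected on 0 arrays, PTPRC, CD3E and COL1A1 on 1, COL1A2 and VWF on 2 and DCN on 5, while CD68 and ACTA2 were detected on 27. In such bulk RNA, fewer cells of one kind and less RNA per cell cannot be told apart.

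Annexins share a conserved core that docks on membranes when calcium rises, and they differ in their N-terminal tails, which bind partners such as S100 proteins. They take part in vesicle traffic, membrane repair and the control of inflammation. SNAI1 (Snail) is a zinc finger repressor that drives epithelial cells toward a mesenchymal state and binds E-boxes of the letters CAGGTG. LEF1 binds DNA with beta-catenin and carries the transcriptional output of Wnt signalling, which is active in colorectal cancer.

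Because both induced proteins bind DNA, the 250 bases upstream of the annotated start were searched on both strands for the E-box letters CAGGTG (or CACCTG) and for the TCF/LEF letters CTTTGAA and CTTTGAT (or TTCAAAG and ATCAAAG). These come from RefSeq, build GRCh38.p14, where 9 of the 10 annexins matched an entry, all but ANXA13. The E-box letters were present upstream of ANXA3 and ANXA7 and the TCF/LEF letters upstream of none of the 9, and no found E-box overlapped another match. Among 27305 promoters, 17.5% held the E-box letters and 6.03% the TCF/LEF letters. Shown are ANXA3, whose E-box letters start 68 bases upstream of the start (chr4:78551520-78551769, plus strand), ANXA7, whose letters start 141 bases upstream (chr10:73414059-73414308, minus strand), and ANXA1, the annexin with the largest change, which held neither motif (chr9:73151615-73151864, plus strand). Capitals mark the E-box letters, each sequence runs 5′ to 3′ along the gene, and a match describes letters, not a bound site.
ANXA3: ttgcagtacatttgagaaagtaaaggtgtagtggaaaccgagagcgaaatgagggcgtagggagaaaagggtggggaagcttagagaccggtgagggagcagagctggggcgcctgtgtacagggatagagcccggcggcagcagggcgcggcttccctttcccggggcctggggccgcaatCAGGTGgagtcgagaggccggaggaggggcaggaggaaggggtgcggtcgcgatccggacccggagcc
ANXA7: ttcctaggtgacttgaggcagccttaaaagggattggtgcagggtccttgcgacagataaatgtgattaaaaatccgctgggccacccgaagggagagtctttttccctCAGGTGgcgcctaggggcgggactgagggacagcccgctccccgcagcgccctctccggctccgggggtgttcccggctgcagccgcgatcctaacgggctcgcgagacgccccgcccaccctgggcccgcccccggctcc
ANXA1: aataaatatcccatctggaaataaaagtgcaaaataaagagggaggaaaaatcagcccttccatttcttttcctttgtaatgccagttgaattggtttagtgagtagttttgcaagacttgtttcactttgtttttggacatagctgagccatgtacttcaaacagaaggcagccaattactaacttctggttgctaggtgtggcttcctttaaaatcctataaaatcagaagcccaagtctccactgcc

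The first question was which annexins differed late after Snail1 induction. The late change is the mean of 24, 48, 72 and 96 h minus 0 h, minus the same difference in the control line. ANXA1 rose, and ANXA3 and ANXA13 fell. These were 3 of the 9 tested annexins, 1 higher and 2 lower, at an adjusted p under 0.05 in limma, against 8.69% of all genes (3.89% higher and 4.8% lower). The median late change was -0.15 over the 9 annexins and 0.02 over all genes.

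ANXA1 encodes the glucocorticoid-induced annexin that dampens inflammation through formyl peptide receptors. In the SNAI1 line it read 7.88 and 7.72 at 0 h, 8.35 at 3 h, 9.08 and 8.78 at 6 h, 10.53 at 24 h, 11.71 and 11.36 at 48 h, 12.05 at 72 h and 12.05 and 11.98 at 96 h. Control line values were 6.09 and 8.76 at 0 h, 7.32 at 3 h, 9.88 and 7.69 at 6 h, 7.17 at 24 h, 6.54 at 48 h, 6.42 at 72 h and 6.45 at 96 h. The 6 late SNAI1 line arrays lay above every other array of the series, and the late control line arrays were at the low end of their own line. The late change was 4.51 on the log2 scale, or 22.9-fold (SE 0.849, adjusted p = 0.00356 in limma). Each control line pair at 0 h and 6 h spans the array sets, and the set 2 array read higher in both. With the array set as a block the change was 3.30 (adjusted p = 0.000128 in limma) and within set 1 it was 3.18 (adjusted p = 0.0012). Without control line 0 h replicate 1 it was 5.85, and without replicate 2 it was 3.18.

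ANXA3 encodes an annexin that inhibits phospholipase A2 in vitro. Its probe read 7.42 and 7.18 at 0 h, 7.76 at 3 h and 7.37 and 7.62 at 6 h in the SNAI1 line. From 24 h on it was detected on 0 of 6 arrays, at 4.31, 4.55, 4.25, 4.81, 4.82 and 4.45. All control line arrays detected it, from 7.06 to 9.42, so the late SNAI1 line arrays stood below every other array of the series. The fitted late change was -2.69 (SE 0.598, adjusted p = 0.0112 in limma). A floored fold took for each late array the higher of the probe's own value and the lowest detected signal. By this floored fold, ANXA3 was 6.14-fold lower late than at 0 h in the SNAI1 line. Undetected probes can read above that signal, so a floored fold is not a strict bound. With the array set as a block the change was -3.46 (adjusted p = 0.000104 in limma) and within set 1 it was -3.80 (0.00107). The call was lost with the authors' deposited log2 values (-1.19, adjusted p = 0.13 in limma), with no background correction (-1.19, 0.13), with an offset of 50 (-1.64, 0.0693) and without SNAI1 line 0 h replicate 1 (-2.57, adjusted p = 0.0612). Leaving out control line 0 h replicate 1 gave -1.58.

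ANXA13 encodes the myristoylated annexin of intestinal epithelium. The probe used for the test read 5.27 and 6.37 at 0 h, 5.01 at 3 h and 4.88 and 5.30 at 6 h in the SNAI1 line, and 4.23 to 4.38 on the 6 late arrays, none of which detected it. The control line stayed between 4.75 and 5.94. The late change was -1.33 (SE 0.370, adjusted p = 0.0382 in limma). By this probe, with the lowest detected signal as the floor, the late level was 2.34-fold below the mean at 0 h. The 0 h arrays lie apart, and against 3 and 6 h this floored fold was 1.37. A second probe was not called (-0.51, adjusted p = 0.458 in limma over all probes) and was detected at 5.75 at 72 h in the SNAI1 line, so the probes disagree there. Its remaining probe was detected on 1 array. The call did not hold with the array set as a block (-1.35, adjusted p = 0.0631 in limma), within set 1 (-1.20, adjusted p = 0.15), or without any 1 of 8 arrays. These were SNAI1 line 0 h replicate 2 (-0.78, adjusted p = 0.252 in limma), control line 0 h replicate 2 (0.133), control line 72 h (0.118), and SNAI1 line 72 h (0.118), 48 h replicates 1 and 2 (0.0626 and 0.0547) and 96 h replicates 1 and 2 (0.0586 and 0.0611). Beside these falls, 3 of 8 colon epithelium markers fell late in the SNAI1 line and 0 rose, against 3.89% higher and 4.8% lower over all genes: VIL1 (-3.03, adjusted p = 6.09e-06 in limma), GPA33 (-4.10, 2.37e-05) and EPCAM (-1.41, 0.00375). Their part in the annexin values was not tested, and of the 5 tested markers of other cell types 0 changed.

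ANXA6 encodes the large annexin with a duplicated core, which acts in endosomal and cholesterol traffic. It was detected on 5 of the 27 arrays, all of the SNAI1 line, at 5.52 and 5.73 at 48 h, 6.01 at 72 h and 6.53 and 5.66 at 96 h. At 24 h that line read 4.80, undetected, and its 5 earlier arrays read 4.32 to 4.62. All 16 arrays of the other lines lay between 4.29 and 5.25 without detection. Only those 5 arrays carried ANXA6 past the filter, so its place among the tested genes is not independent of its late values. Its late change of 0.96 missed the threshold (SE 0.371, adjusted p = 0.144 in limma), and it was 1.31 and called without the 24 h array of the SNAI1 line or of the control line (0.0406). With the 0 h arrays raised to the lowest detected signal, ANXA6 was 2.05-fold higher late than at 0 h in the SNAI1 line. The undetected 24 h array entered that late mean as read, so this floored fold is not a strict bound.

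**Figure D1:**
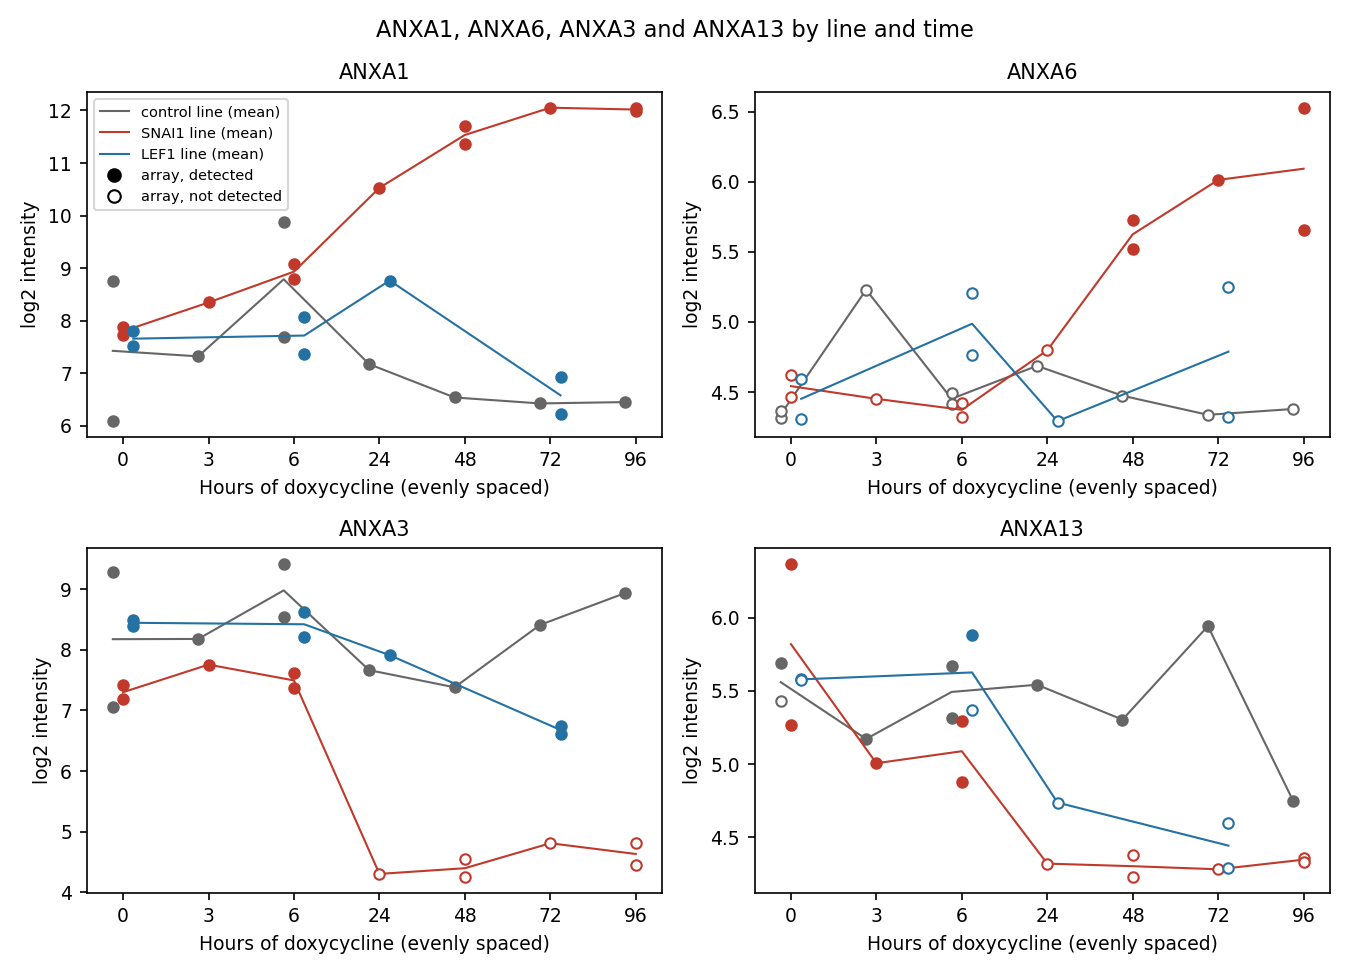
Normalised log2 intensity (vertical axis) of ANXA1, ANXA6, ANXA3 and ANXA13 against hours of doxycycline (horizontal axis, evenly spaced) in the control (grey), SNAI1 (red) and LEF1 (blue) lines. Points are arrays, open where the probe was not detected, and lines join the means: ANXA1 climbs to 12.05 at 72 h in the SNAI1 line, where ANXA3 drops to between 4.25 and 4.82 from 24 h on.

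The other 5 tested annexins did not pass in the late comparison, and all of their probes used for the test were detected on 27 arrays. ANXA2 encodes the S100A10 partner that assembles plasminogen at the cell surface. It read 13.00 and 13.07 at 0 h and 13.24 to 13.96 late in the SNAI1 line, against 12.85 to 13.33 in the control line (0.34, SE 0.212, adjusted p = 0.400 in limma). Its other 2 probes gave -0.09 and 0.44 and were not called. ANXA5, the annexin used as a probe of exposed phosphatidylserine, read 10.99 and 11.01 at 0 h and 11.55 to 12.01 late in the SNAI1 line (0.29, SE 0.350, adjusted p = 0.706). All 6 late arrays lay above the highest control line array, 11.21. ANXA7, which binds the calcium sensor sorcin, read 10.88 and 10.95 at 0 h and 10.24 to 10.57 late in the SNAI1 line, below the lowest control line array at 10.89 (-0.46, SE 0.225, adjusted p = 0.262).

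ANXA4, an annexin of epithelial apical membranes, reached its lowest values of the series at 48 h in the SNAI1 line, 6.55 and 6.47, and read 7.40 and 7.31 there at 96 h (late change -0.15, SE 0.461, adjusted p = 0.900 in limma). That change was 0.50 without control line 0 h replicate 1, which turns its direction, and -0.80 without replicate 2. With array set and a replicate block in the LEF1 line together it was -0.77 and called (adjusted p = 0.0327 in limma). ANXA11, which tethers RNA granules to lysosomes, read 7.59 and 7.61 at 48 h and 8.35 and 8.14 at 96 h (late change -0.58, SE 0.410, adjusted p = 0.473). Without control line 0 h replicate 1 that change was -1.28 and called (adjusted p = 0.0133 in limma). Its second tested probe gave -0.25 and was not called either. ANXA10, an annexin of gastric epithelium, was detected on 0 of 27 arrays, at 4.31 to 5.35, and was not tested.

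How many annexins passed differed with the reference, and which ones passed also differed with the array set as a block. Against the SNAI1 line's own 0 h, without the control line, 7 of 9 annexins passed at 5%, against 20.1% of all genes. Against control line arrays of matching times, without 0 h, 7 of 9 passed, against 29.1% of all genes. For late minus early within the SNAI1 line alone, 5 of 9 passed, against 22.3% of all genes. Both counts of 7 hold ANXA1, ANXA2, ANXA5 and ANXA6 as higher and ANXA3, ANXA7 and ANXA13 as lower, and they share the late SNAI1 line arrays. ANXA6 is in these counts of 7, and in the count of 5, only through the arrays that carried it past the filter. For ANXA2 the changes were 0.56 (adjusted p = 0.0139 in limma) and 0.44 (0.0115), for ANXA5 0.74 (0.0447) and 0.70 (0.0132), and for ANXA7 -0.47 (0.0469) and -0.58 (0.00265). The fitted values for ANXA6, against undetected readings, were 1.09 (adjusted p = 0.00764 in limma) and 1.16 (0.000608). With the array set as a block in the full comparison, ANXA1, ANXA3 and ANXA5 passed, against 8.39% of all genes (ANXA5 0.73, adjusted p = 0.0429 in limma).

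**Figure D2:**
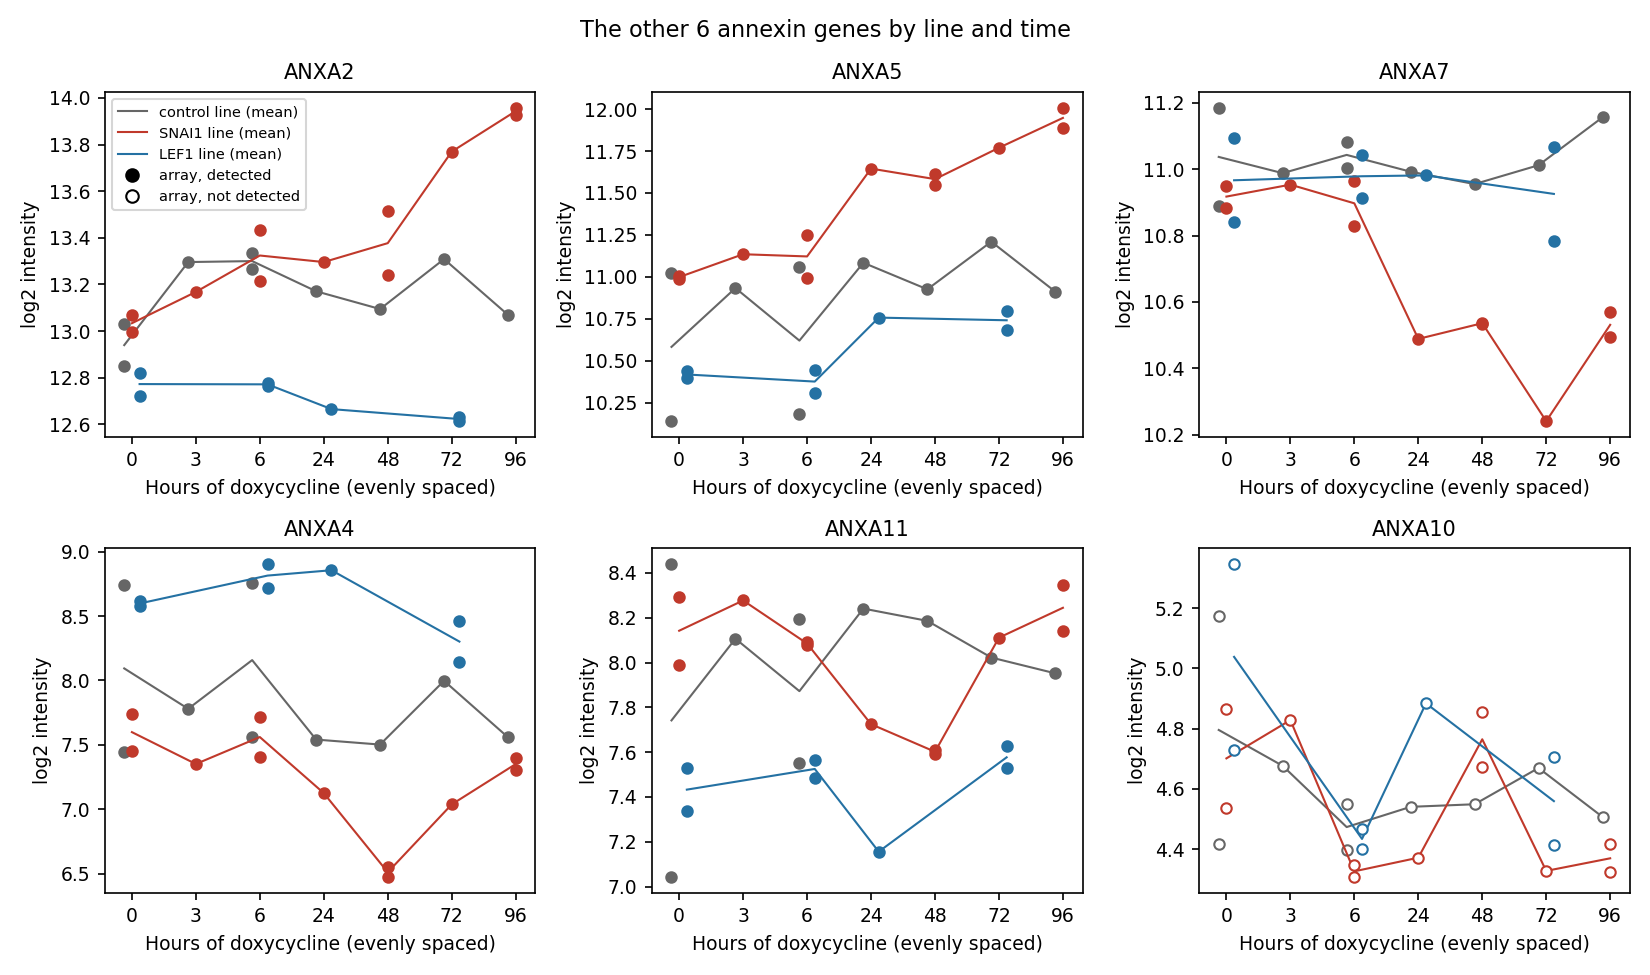
Normalised log2 intensity (vertical axis, each panel with its own range) of ANXA2, ANXA5, ANXA7, ANXA4, ANXA11 and ANXA10 against hours of doxycycline (horizontal axis, evenly spaced) in the 3 lines, with points for arrays, open where not detected, and lines for means. Late SNAI1 line arrays lie at 11.55 or more for ANXA5 and at 10.57 or less for ANXA7.

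The second question was when the annexins changed. At 3 and 6 h, 0 of 9 annexins passed in the SNAI1 line, against 0% of all genes in limma, where 337 of 13510 genes had an unadjusted p under 0.05 and none of these was among the 9 annexins. By its second probe, not used for the test, ANXA13 was lower at 3 and 6 h (-0.88, unadjusted p = 0.0219 in limma) without passing. That probe read 4.63 to 4.77 on the SNAI1 line arrays of these times, with 1 of 3 detected, and its late change was smaller (-0.51). Relative to 0 h and the control line, the ANXA1 change was 0.65 at 3 h, -0.23 at 6 h, 2.98 at 24 h, 4.62 at 48 h, 5.26 at 72 h and 5.19 at 96 h. The ANXA3 change was 0.45 and -0.61 at 3 and 6 h and -2.48, -2.11, -2.72 and -3.43 from 24 to 96 h. These values depend on the array sets. The control line averages both sets at 0 h and 6 h, and its other times are single set 1 arrays. Its 0 h arrays read 6.09 and 8.76 for ANXA1 and 7.06 and 9.29 for ANXA3. The sizes at 3 h and from 24 h on therefore move with the choice of 0 h array, and the direction at 3 h is not settled. ANXA6 was detected on 0 of 6 SNAI1 line arrays up to 24 h and on 5 of 5 from 48 h on.

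Tested directly, late minus early passed for 3 of 9 annexins, 2 higher (ANXA1 and ANXA6) and 1 lower (ANXA3), against 8.29% of all genes (3.93% higher and 4.36% lower). ANXA6 was tested only because of its late SNAI1 line arrays, so its call and its place in the count are a description. The difference was 4.30 for ANXA1 (SE 0.771, adjusted p = 0.00259 in limma) and 3.69 with the array set as a block. For ANXA3 it was -2.61 (SE 0.544, adjusted p = 0.00752 in limma), and by the floored fold the level was 7.69-fold lower late than at 3 and 6 h in the SNAI1 line. This call was lost with the authors' deposited values or no background correction (-1.15, adjusted p = 0.108 in limma in both), with an offset of 50 (-1.58, 0.0544) and without the control or the SNAI1 line at 3 h (-2.08, adjusted p = 0.0526 in both). For ANXA6, undetected at every early time, the fitted value was 1.59 (SE 0.337, adjusted p = 0.00827 in limma), and the floored fold within the SNAI1 line was 2.07. Without the control line at 3 h, which read 5.23 undetected, or without the SNAI1 line at 3 h, the ANXA6 difference was 1.24 and not called (adjusted p = 0.0625 in limma in both), and with the authors' deposited values it was 0.65. ANXA13 did not pass here (-0.78, adjusted p = 0.193). Its second probe gave the other direction and was not called (0.37, adjusted p = 0.597 in limma over all probes).

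The third question was which annexins differed after Lef1 induction. Averaged over 24 and 72 h and relative to the control line, 0 of 9 annexins passed in the LEF1 line, against 1.15% of all genes in limma (0.888% higher and 0.266% lower), with 1 of the 9 annexins, ANXA13, at an unadjusted p under 0.05. At 6 h, 0 of 9 passed, against 0% of all genes in limma (354 at an unadjusted p under 0.05, none of the 9). Another ANXA2 probe, not used for the test, was lower late (-0.83, unadjusted p = 0.0341 in limma) and at 6 h (-1.02, 0.0151) but passed in neither. The remaining ANXA2 probe gave -0.36 and -0.68. Against control line arrays of matching times, 2 of 9 passed, ANXA2 (-0.60, adjusted p = 0.0293 in limma) and ANXA13 (-1.15, 0.0185), against 14.1% of all genes. ANXA1 in the LEF1 line read 7.80 and 7.52 at 0 h, 8.06 and 7.37 at 6 h, 8.76 at 24 h and 6.92 and 6.23 at 72 h. Its highest value thus came at 24 h, and its late change was 0.64 (SE 0.969, adjusted p = 0.872 in limma).

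ANXA3 in the LEF1 line read 8.50 and 8.39 at 0 h, 8.21 and 8.63 at 6 h, 7.91 at 24 h and 6.62 and 6.74 at 72 h. The 72 h pair lay below the other 5 arrays of the line but stayed detected, unlike the late SNAI1 line arrays. The late change was -1.01 (SE 0.683, adjusted p = 0.630 in limma). It was -1.79 with the array set as a block (adjusted p = 0.0538 in limma), -1.15 against the line's own 0 h within set 2 (0.0545), and -2.12 and called without control line 0 h replicate 2 (0.0219). ANXA13 read 5.57 and 5.58 at 0 h, 5.88 and 5.37 at 6 h, 4.74 at 24 h and 4.29 and 4.60 at 72 h (late change -1.17, SE 0.422, adjusted p = 0.264 in limma). Detection was stricter in set 2, where 5.57 counted as undetected, than in set 1, where 4.75 counted as detected.

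The lines were also compared with each other over 24 and 72 h, which drops the control line from the estimate. Its replicate pairs still enter the SE. Here 0 of 9 annexins passed, against 2.73% of all genes in limma (1.01% higher and 1.72% lower), and ANXA1, ANXA2 and ANXA3 had an unadjusted p under 0.05. The SNAI1 minus LEF1 line difference was 3.48 for ANXA1 (11.1-fold, SE 0.969, adjusted p = 0.0835 in limma), 0.63 for ANXA2 (adjusted p = 0.265) and -1.59 for ANXA3 (SE 0.683, adjusted p = 0.349). The ANXA2 probes not used for the test gave 1.14 (adjusted p = 0.190 in limma over all probes) and 0.16. With the array set as a block the estimates were unchanged and the SE fell to 0.377 for ANXA1 (adjusted p = 0.000374 in limma) and 0.381 for ANXA3 (0.0394). In that fit 2 of 9 annexins passed, against 3.63% of all genes. ANXA1 also passed without the 24 h array of either line (5.33, adjusted p = 0.0118 in limma), or without control line 0 h replicate 1 or 2 (0.0151) or 6 h replicate 1 or 2 (0.0404), and without the 72 h array of the SNAI1 line its difference was 1.62. ANXA3 passed without either control line 0 h array (0.0326).

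**Figure D3:**
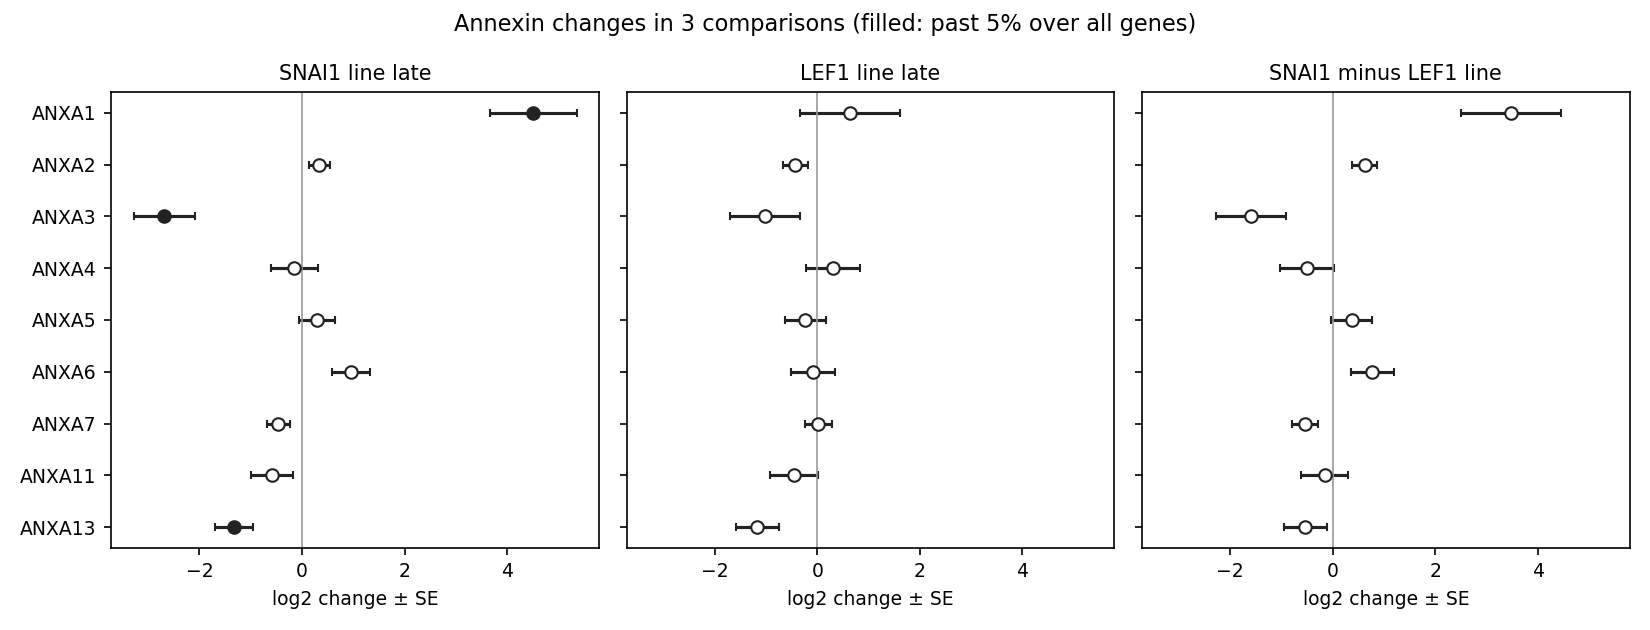
Log2 change (horizontal axis, bars are ± SE of the limma fit) of the 9 tested annexins (vertical axis) late in the SNAI1 line, late in the LEF1 line and between these lines, on 1 shared axis. Filled points passed 5% over all 13510 genes: ANXA1 at 4.51, ANXA3 at -2.69 and ANXA13 at -1.33 late in the SNAI1 line, and none in the other comparisons.

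Before induction none of the 9 annexins passed between the lines. At 0 h, 0 of 9 passed in the SNAI1 line against 0.0074% of all genes (668 at an unadjusted p under 0.05, none of the 9, in limma) and 0 of 9 in the LEF1 line against 0.0222% (0.0148% higher and 0.0074% lower, with 934 genes and none of the 9 at an unadjusted p under 0.05). Without control line 0 h replicate 1, ANXA3 (-1.98, adjusted p = 0.0164 in limma) and ANXA11 (1.10, 0.0331) passed between the SNAI1 and control lines at 0 h. Late in the control line, 0 of 9 passed against 0% of all genes in limma (531 at an unadjusted p under 0.05, none of the 9). For some annexins the set 2 control line arrays read closer to the LEF1 line than to the rest of their own line. The set 2 control line arrays at 0 h and 6 h read 8.74 and 8.75 for ANXA4, where their set 1 partners read 7.45 and 7.56 and the LEF1 line 8.14 to 8.91. For ANXA5 they read 10.14 and 10.18, where set 1 control line arrays read 10.91 to 11.21 and the LEF1 line 10.31 to 10.80. For levels of these genes, only the set 2 control line arrays share the array set of the LEF1 line, and the cause of the gap was not tested.

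Genes that act with annexins were followed in lists chosen from general knowledge, with the same threshold over all genes. Of 9 annexin-binding S100 genes 6 were tested, and late in the SNAI1 line 1 was higher and 0 lower, against 3.89% higher and 4.8% lower over all genes (median 0.62, all genes 0.02). S100A11, which binds the ANXA1 tail, read 8.43 and 8.29 at 0 h in the SNAI1 line, 9.33 at 24 h, 9.71 and 9.54 at 48 h, 10.97 at 72 h and 11.27 and 11.10 at 96 h. The control line read 7.85 to 9.12 and the LEF1 line 7.80 to 9.25, so the late SNAI1 line arrays lay above both. The late change was 1.81 (SE 0.425, adjusted p = 0.0153 in limma) and the SNAI1 minus LEF1 line difference 2.49 (SE 0.486, adjusted p = 0.0119). The late call was lost without control line 0 h replicate 2 (1.18, adjusted p = 0.0802 in limma) or SNAI1 line 0 h replicate 1 or 2 (0.0531 and 0.0776). The difference of the lines was lost without the SNAI1 line at 72 h (1.37, adjusted p = 0.591), its 0 h replicate 2 (0.0576) or LEF1 line 0 h replicate 2 (0.0635). S100A10, the ANXA2 partner, read 10.19 and 9.65 at 0 h and 12.76 and 12.47 at 96 h in the SNAI1 line and did not pass (2.17, SE 0.641, adjusted p = 0.0505).

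Of 15 membrane repair and scaffold genes 13 were tested, and late in the SNAI1 line 2 were higher and 0 lower, against 3.89% higher and 4.8% lower over all genes (median 0.07, all genes 0.02). CAVIN1, a coat protein of caveolae, read 6.20 and 5.40 at 0 h in the SNAI1 line and 9.09 to 10.24 on the 6 late arrays. It was undetected on all 7 LEF1 line arrays (4.34 to 4.93). Its late change was 3.91 (SE 0.650, adjusted p = 0.00153 in limma), and the difference of the lines was 3.51 (adjusted p = 0.0189). Leaving out SNAI1 line 0 h replicate 2 (0.105), SNAI1 line 72 h (0.262) or LEF1 line 0 h replicate 1 or 2 (0.0546 and 0.0676) lost that call. SMPD1, which encodes the acid sphingomyelinase used in plasma membrane repair, read 5.62 and 5.48 at 0 h and 6.92 to 9.18 late in the SNAI1 line.

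SMPD1 was higher late in both induced lines. The late change was 3.04 in the SNAI1 line (SE 0.287, adjusted p = 1.76e-05 in limma) and 1.94 in the LEF1 line (SE 0.328, adjusted p = 0.00815), where it read 6.23 and 6.71 at 0 h, 7.70 at 24 h and 7.93 and 8.41 at 72 h. The LEF1 line call was lost without the control line at 72 h (1.63, adjusted p = 0.260 in limma) or LEF1 line 0 h replicate 1 (0.0520). DYSF, which encodes the muscle membrane repair protein dysferlin, was undetected at 0 h and 6 h in the LEF1 line (4.72 to 5.16) and read 5.86 at 24 h and 7.83 and 8.92 at 72 h. The SNAI1 line stayed between 4.55 and 6.10, and the SNAI1 minus LEF1 line difference was -2.32 (SE 0.520, adjusted p = 0.0260 in limma), although the LEF1 line change itself did not pass (2.21, adjusted p = 0.0585). That difference was lost without SNAI1 line 72 h (-1.12, adjusted p = 0.772 in limma), SNAI1 line 0 h replicate 1 (0.149) or LEF1 line 0 h replicate 1 or 2 (0.106 and 0.0520).

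Of the 4 penta-EF-hand calcium sensor genes, all tested, 0 were higher and 1 lower late in the SNAI1 line, against 3.89% higher and 4.8% lower over all genes (median -0.52). GCA, which encodes grancalcin, read 9.48 and 9.67 at 0 h, 7.48 at 24 h, 6.49 and 6.86 at 48 h, 6.49 at 72 h and 6.14 and 6.10 at 96 h in that line. The control and LEF1 lines stayed between 9.45 and 10.28. The late change was -3.02 (SE 0.310, adjusted p = 2.73e-05 in limma), and the SNAI1 minus LEF1 line difference was -2.90 (adjusted p = 0.000526).

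Of the 4 further annexin genes on the list 2 were tested, and 1 was lower late in the SNAI1 line, against 4.8% lower over all genes (median -0.89). ANXA9, an annexin without working calcium sites, read 6.02 and 6.06 at 0 h and 4.33 to 5.16 late there, detected on 1 of 6 late arrays, while the control line read 6.15 to 7.67 (fitted late change -1.99, SE 0.374, adjusted p = 0.00358 in limma). Over the 17 settings that kept all arrays or 1 array set the size ran from -2.31 to -0.91, and the call held in each of them. In the LEF1 line the late change of ANXA9 was -1.35 and did not pass (SE 0.428, unadjusted p = 0.0070, adjusted p = 0.183 in limma). The control line itself was 0.78 higher late for ANXA9 without passing (unadjusted p = 0.0125, adjusted p = 0.989 in limma over all probes). That change is subtracted in the SNAI1 line value. Of 3 annexin A1 receptor genes 2 were tested, with 0 called late in the SNAI1 line, against 8.69% of all genes (median -0.34), and 1 called lower in the LEF1 line, against 0.266% (median -0.51). That 1, FPR3, was undetected on all 7 LEF1 line arrays (4.27 to 5.24) and read 5.84 at 72 h in the control line. With no LEF1 line array above background, the fitted value (-1.46, adjusted p = 0.0230 in limma) measures no change within that line. It was not called without the control line at 72 h (-0.94, adjusted p = 0.648 in limma), without LEF1 line 0 h replicate 1 or 2 (0.0742 and 0.0861), without background correction or with the authors' values (0.110 in both), with an offset of 50 (0.0625) or within set 2 (0.105). Of 7 plasminogen activation genes 4 were tested and of 6 phosphatidylserine exposure genes 5, with 0 called in any of the 9 comparisons (late SNAI1 line medians 0.11 and -0.19).

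**Figure D4:**
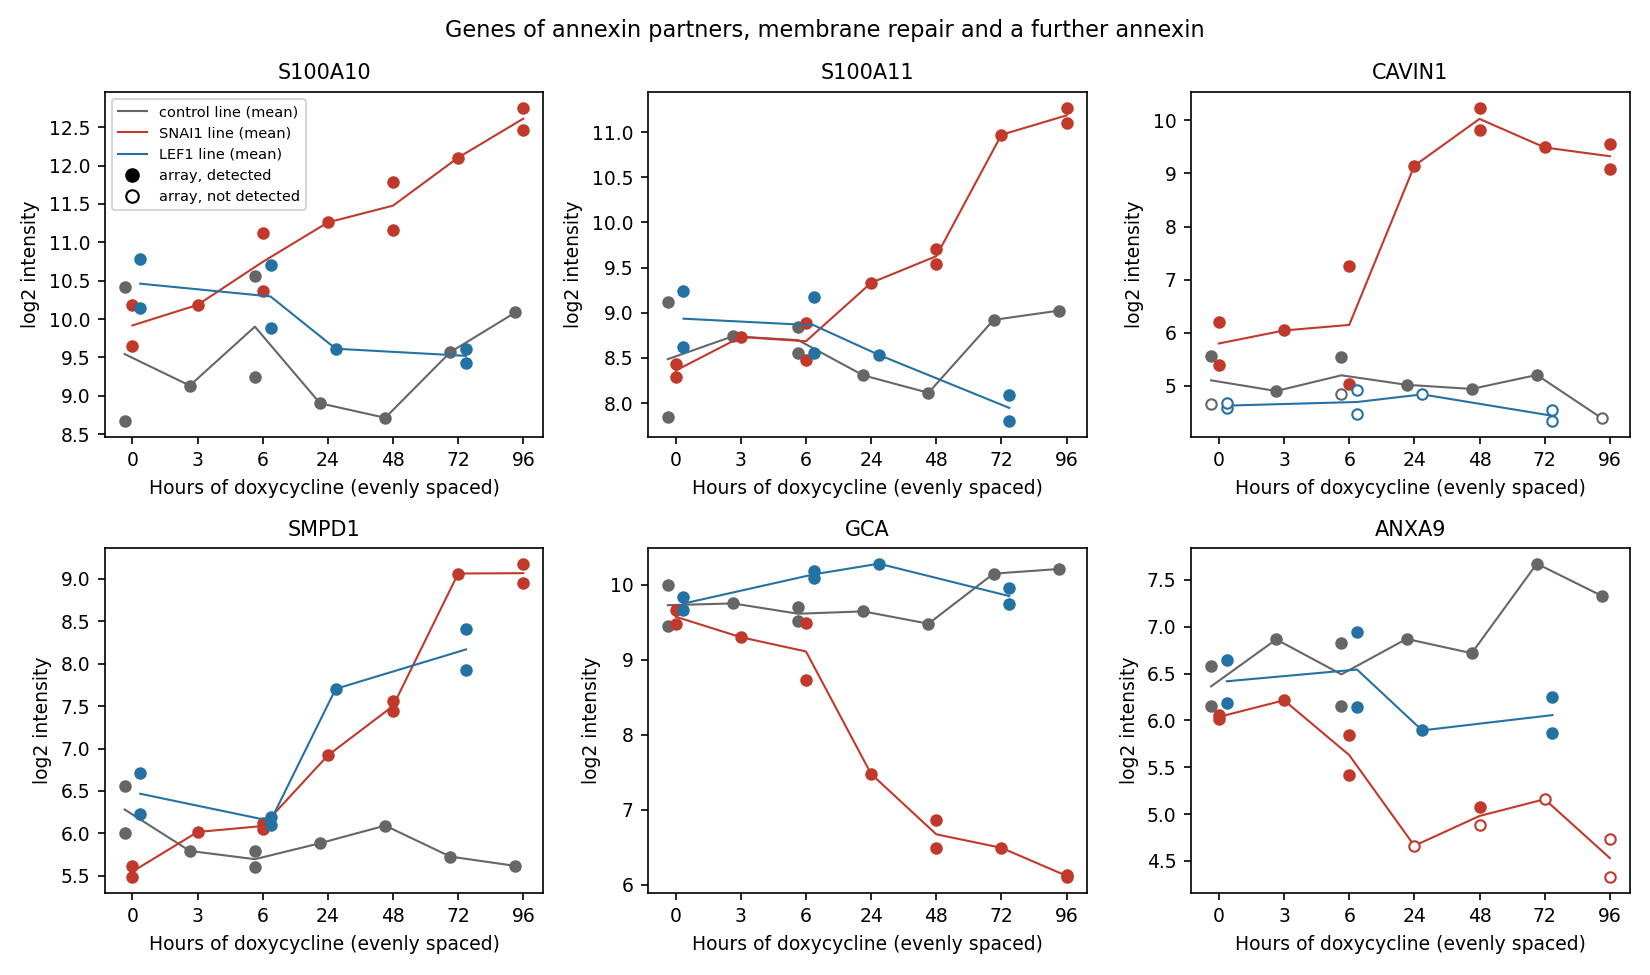
Normalised log2 intensity (vertical axis, each panel with its own range) of S100A10, S100A11, CAVIN1, SMPD1, GCA and ANXA9 against hours of doxycycline (horizontal axis, evenly spaced) in the 3 lines, with points for arrays, open where not detected, and lines for means. SMPD1 is higher late in both induced lines, while S100A11 reaches 11.27 and GCA drops to 6.10 in the SNAI1 line.

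By their means over the 18 combinations of line and time, the genes most like ANXA1 were PLEKHO1 (Pearson r = 0.968), ARID5B (0.931), CAVIN1 (0.928), CYP26B1 (0.925) and HDDC2 (0.924). Those most like ANXA3 were MIF4GD (0.972), ACP6 (0.968), SQOR (0.967), CLDN3 (0.965) and GPR160 (0.964). Among the annexins themselves, ANXA3 and ANXA7 were closest (0.931) and ANXA1 and ANXA7 most opposed (-0.890). All of these values come from the same 27 arrays and share their normalisation, so they describe these means and carry no test.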

How the data were processed

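Total RNA of 27 LS174T samples was hybridised to 1-colour Illumina bead arrays. The authors deposited non-normalised log2 intensities with a detection p-value per probe, per the file headers, and a log2 matrix whose columns share 1 distribution over the 27 arrays. Scanner software and bead summarisation were not given in the sources used here. Of 47323 probes 32 had no usable value. By platform annotation 30092 of the rest had 1 gene, 8 several and 17191 none.

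Deposited log2 intensities were returned to the linear scale, corrected with limma's normexp (offset 16, negative controls inferred from the detection p-value), quantile normalised and taken to log2. Probes with a detection p-value under 0.01 on 2 or more arrays entered (25629 probes), and each gene took its probe of highest mean (13510 genes). Levels of different probes were not compared. A model with 18 group means, one per line and time (9 groups had 2 arrays and 9 had 1, residual df 9), was fitted with limma 3.58.1 in R 4.3.3. Adjusted p-values are Benjamini-Hochberg over all 13510 genes at 5%, in 9 comparisons. The procedure was tested on simulated data with independent noise and no gap between array sets. Of 100 genes given a log2 change of 1, it recovered 21 late in the SNAI1 line and 21 late minus early. Late in the LEF1 line it recovered 6, and between the induced lines 3. At a change of 2 these counts were 71, 82, 55 and 53 of 100. A count of 0 annexins called therefore does not show that none changed. The number of arrays limits the precision.

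Same-numbered arrays deviated together in the LEF1 line (correlations 0.471 to 0.523), where the numbers were taken as pairs, but not in the SNAI1 line (-0.01 to 0.129) or the control line (-0.43). Alternatives covered background, filter, probe choice, reference, array set, replicate block and each array left out. All 10 annexins are named, list genes are named where they passed in a comparison, and the 5 genes most like ANXA1 and ANXA3 by Pearson r are named. S100A10 was chosen outside this rule after its values were seen. The annexins and all lists were chosen with earlier results of these data known.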

Additional observations from a re-analysis of the deposited data

Results flagged for a closer look

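These values drew attention because the change differed between time windows or between lines by a direct test in limma over all genes. In the SNAI1 line the difference between late and early times was 4.30 for ANXA1, -2.61 for ANXA3 and 1.59 for ANXA6 among the annexins followed. The ANXA6 value is a fitted difference against undetected readings, for a gene tested only through its late SNAI1 line arrays. Among the other genes it was -1.56 for ANXA9 (adjusted p = 0.00983 in limma), 1.70 for S100A11 (0.0128), 3.56 for CAVIN1 (0.00152), 2.00 for SMPD1 (0.000226) and -2.70 for GCA (2.90e-05).

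Between the induced lines over 24 and 72 h, the SNAI1 minus LEF1 difference was 2.49 for S100A11, 3.51 for CAVIN1, -2.90 for GCA and -2.32 for DYSF. DYSF and GCA had the higher signal in the LEF1 line at 72 h, DYSF at 7.83 and 8.92 there after undetected readings at 0 h. The difference for ANXA1 was as large as that for CAVIN1, at 3.48, but had a larger SE of 0.969 in the main fit. That SE pools the spread of all replicate pairs, those of the control line included, and it was smaller with the array set as a block.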

How the results depend on the processing

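ANXA1 late in the SNAI1 line passed in every alternative run, including all 27 fits that left out 1 array (3.18 to 5.85). Of 9 annexins, the late SNAI1 count was 1 with a normexp offset of 50 (ANXA3 -1.64, ANXA13 -0.69) and 7 against the line's own 0 h or the control line at matching times, and late minus early it was 5 within the line. ANXA6 is in the counts of 7 and 5 only through its late SNAI1 line arrays. Late in the LEF1 line 2 passed against the control line at matching times and 1, ANXA3 (-2.09, adjusted p = 0.00935 in limma), with the replicate block and array set together. Between the induced lines 1 passed with the authors' values or without background correction, and 2 with the array set as a block, alone, with the replicate block, with the replicate block in the LEF1 line only (added after seeing the data), or as crossed pairs in the control line (also added). At 0 h the LEF1-line block with array set gave 1 in the SNAI1 line (ANXA1 1.59) and the crossed pairs gave 2 in the LEF1 line (ANXA1 1.45, ANXA4 1.13). Leaving out 1 array gave 2 to 4 late in the SNAI1 line, 1 to 3 late minus early, 0 to 1 late in the LEF1 line, 0 to 2 between the induced lines, 0 to 2 at 0 h in the SNAI1 line and 0 elsewhere. Where no share of all genes is given, these counts describe the settings and are no result about the annexins. The LEF1-line replicate block alone changed no annexin call (ANXA1 between lines 3.62, adjusted p = 0.0772 in limma). The replicate block over all lines, whose numbers pair only LEF1 line arrays, lost ANXA13 late (-1.07, adjusted p = 0.109), S100A11 late (1.51, 0.0666) and DYSF between the lines (-2.40, 0.0564). Genes called in all changed from 369 to 704 and 689 between the induced lines, from 1120 to 2250 late minus early and from 156 to 495 late in the LEF1 line with replicate block and array set, and from 3 to 362 at 0 h in the LEF1 line with crossed pairs. Detection limits ANXA3, ANXA6, ANXA9, ANXA13 and FPR3, whose low groups lie at background, so their fitted folds depend on the offset. It also limits the line differences of CAVIN1, undetected throughout the LEF1 line, and of DYSF, undetected at 0 h and 6 h there. Over the alternatives other than leaving out 1 array, these ran from 2.39 to 3.55 and from -2.44 to -1.16. The CAVIN1 difference holds no measured change within the LEF1 line.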

Other observations

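Probes of ANXA2 pseudogenes gave signal on all 27 arrays. Late in the SNAI1 line, the ANXA2P1 probes read 1.56 (adjusted p = 0.208 in limma over all probes) and 1.26 (0.198), the ANXA2P3 probe 0.80 (0.330) and the ANXA2P2 probe 0.02. These copies are near-identical to ANXA2, whose own probes read 0.34, -0.09 and 0.44, and signal shared between them cannot be told apart.

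GPA33, a surface glycoprotein of intestinal epithelium, also fell late in the LEF1 line (-2.32, adjusted p = 0.0282 in limma). It alone passed there among the colon epithelium markers, against 0.266% of all genes lower. EPCAM (0.71) and KRT20 (0.90) were higher there and the rest lower, without passing. EPCAM and VIL1 were lower in the SNAI1 than in the LEF1 line (-1.82, adjusted p = 0.00496 in limma, and -1.59, 0.00645), against 1.72% of all genes lower. The other colon markers did not pass in that comparison, and KRT18 (0.09) and MUC2 (0.15) were slightly higher.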
